A study of Sus scrofa with 70 samples.

Results

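TEX26, YPEL1, PFKFB2 and NPTX2 were followed here at the level of single isoforms, in the testis of boars of 2 related breeds and then in 4 other reproductive glands. The genes were chosen by the TPM values and isoform shares of their transcripts in these same testis libraries, where the breeds differed, so their testis values are given as a description and without a test. All transcripts that carry these gene symbols were kept, which gave 36 of 133722 transcripts in the RNA-seq table, namely 16 of PFKFB2, 11 of YPEL1, 6 of TEX26 and 3 of NPTX2. Iso-seq added 33 of 110996 isoforms. The members are 4 of 35552 genes. No isoform that joins 2 genes held a member.

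The study compared Banna mini-pig inbred line (BMI) boars with Diannan small-ear (DSE) boars, the breed from which the inbred line was bred by repeated mating of close relatives. All boars were 12 months old, no treatment was given, and the glands were the testis, the epididymis and the accessory glands, which are the vesicular, prostate and bulbourethral glands. Short-read RNA-seq was available for 3 libraries of each breed and gland, 30 in all, and long-read Iso-seq for 1 library of each breed and gland. One breed is inbred and the other is not, so breed and degree of inbreeding cannot be told apart, and the labels do not say whether libraries of different glands came from the same boars.

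Alternative splicing, alternative first exons and alternative ends let a gene give several RNAs, and the testis is known for an unusually rich set of them because germ cells use their own promoters and splicing factors. PFKFB2 encodes a bifunctional enzyme that makes and breaks fructose 2,6-bisphosphate, the signal that speeds glycolysis. YPEL1 belongs to the yippee-like family of small zinc-binding proteins, NPTX2 is a secreted neuronal pentraxin that clusters AMPA receptors at synapses, and TEX26 is a testis-expressed gene whose role is not known.

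The 4 genes lie on the plus strand of Sscrofa11.1, the build of the deposited annotation. The splice sites of the main isoforms that differed between the breeds are shown here because the largest differences in share described afterwards rest on them. Each line gives bases from the reference genome around an exon edge, with exon and intron meeting in the middle and the intron's end dinucleotide in capitals. The positions are chr11:7593044-7593073 and chr11:7593152-7593181 for TEX26, chr14:50196257-50196286 and chr14:50196356-50196385 for YPEL1, chr9:67680792-67680821, chr9:67680901-67680930, chr9:67681903-67681932 and chr9:67682015-67682044 for PFKFB2, and chr3:5729225-5729254 for NPTX2, in the order of the lines.
TEX26 donor of the intron in the last exon: gaagaaaatctgaagGTaactggtttattt
TEX26 acceptor of the intron in the last exon: ctttttaaacaatAGgatcgtttaaggctg
YPEL1 acceptor of the cassette exon: cacctttaaccacAGggaggaaaactcaag
YPEL1 donor of the cassette exon: tggtggaacgaacagGTgtggattcgaatg
PFKFB2 upstream donor of exon 1: taatcaggagagccgGTgaggtgtaaagga
PFKFB2 downstream donor of exon 1: gactgtgccttccaaGTaagtgctctgtaa
PFKFB2 donor of the short exon 2: gacgattctctccagGTgaggaccaacgcg
PFKFB2 donor of the long exon 2: ctgccgcgttacccgGTaggtgctggggcc
NPTX2 donor of the intronic first exon: cacgcacaatggcagGTgctctgtgggagg

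All 9 edges carry the usual GT or AG. The genome of these boars was not analysed here, so a base change at a site, or a deleted stretch of DNA in place of a removed intron, cannot be told apart from a change in splicing.

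**Figure D1:**
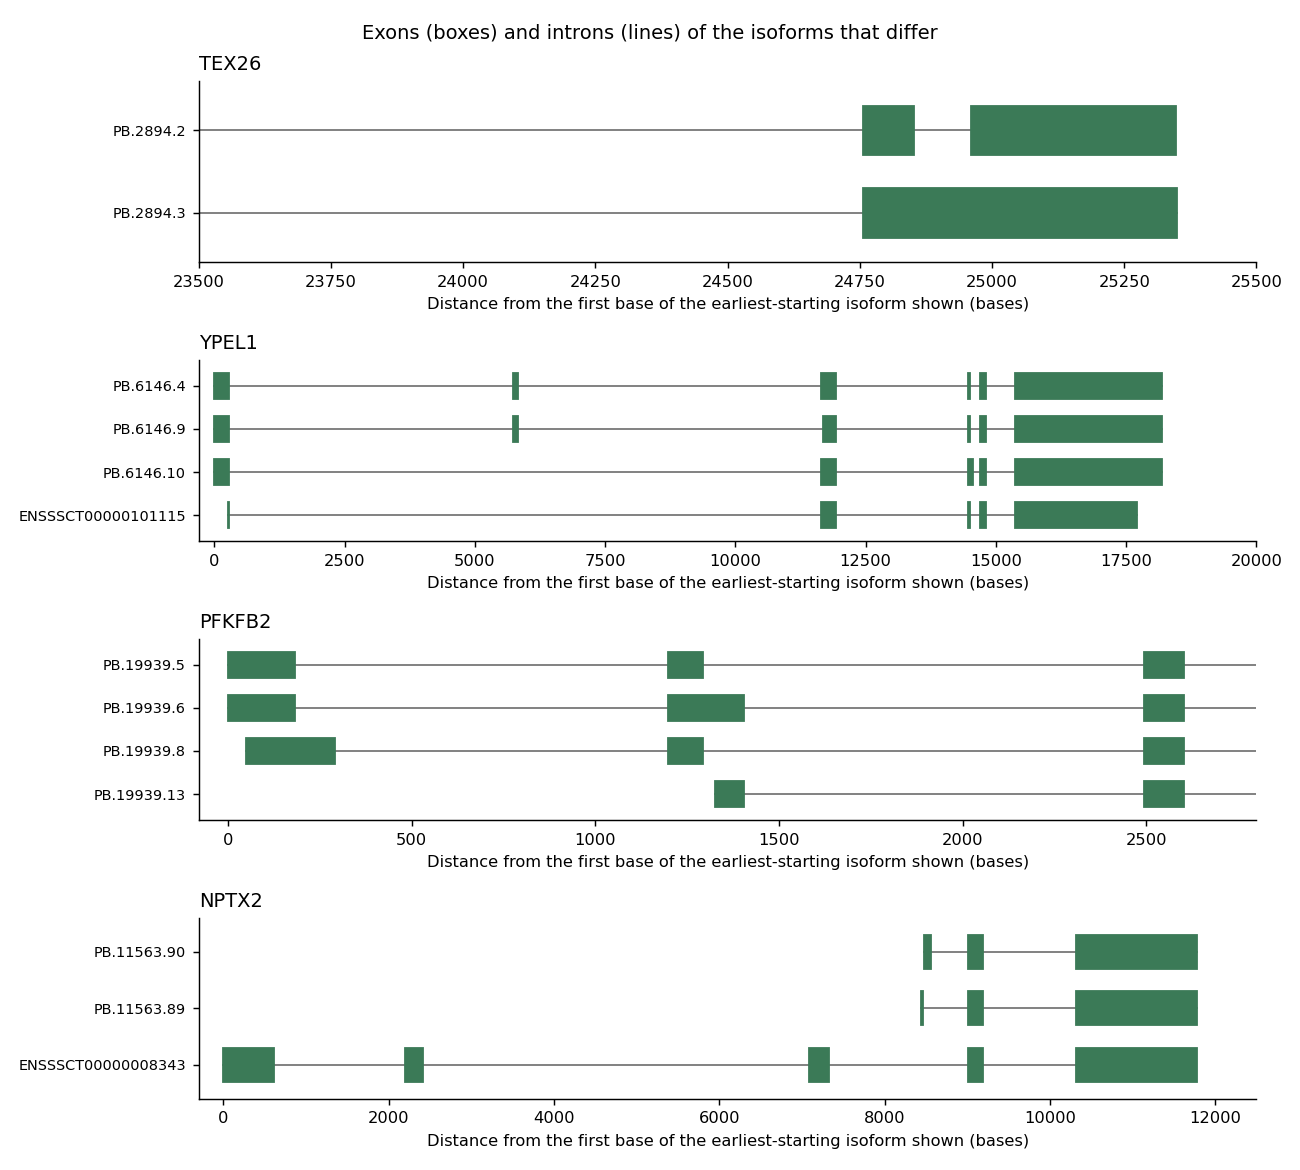
Exons (boxes) and introns (lines) of the isoforms that differed, by distance in bases from the first base of the earliest-starting isoform shown, with TEX26 and PFKFB2 cut to the stretch where the isoforms differ. The last exon of TEX26 is split by a 108-base intron, YPEL1 gains a 99-base exon, PFKFB2 exons 1 and 2 end at different donors, and NPTX2 starts inside the gene.

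Testis libraries carried the markers of germ cells, with the summed level of 8 of 8 spermatid genes between 25910 and 118319 TPM (a share of the library's transcripts after correction for length). The library of DSE testis replicate 2 stood apart. Its spermatid sum of 25910 TPM compared with 77619 to 118319 TPM in the other 5, its sum of 5 Leydig genes of 63514 TPM with 18595 to 32398 TPM, and its sum of 6 Sertoli genes of 637 TPM with 211 to 379 TPM. Marker sums also differed between the breeds. All 3 DSE libraries lay above all 3 BMI libraries in the Leydig sums, at 23927 TPM and above against 21822 TPM and below, in the Sertoli sums, at 284 to 637 against 211 to 230 TPM, and in the sums of 4 peritubular genes, at 100.5 to 160.2 against 87.6 to 95.6 TPM. All 3 lay below BMI in the sums of 8 spermatocyte genes, at 99.2 to 265 against 276 to 326 TPM. The part of cell makeup in the breed differences that follow was not tested. The mean correlation of DSE testis replicate 2 with the other testis libraries was 0.822, against 0.881 to 0.900 for the others. Fewer germ cells and less RNA per germ cell cannot be told apart in such samples. Shares of isoforms within a gene are given beside the levels, but shares can also move with cell makeup. The TPM table holds no read counts, so the number of reads behind each value is unknown.

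Of the 36 transcripts, 22 reached 1 TPM in at least 3 testis libraries and 14 did not. Several of the 22 passed only through the breed in which they were high. Among the 22, the 3 libraries of one breed all lay above the 3 of the other for 11 transcripts, 7 of them with BMI above and 4 with DSE above. Over all 38994 transcripts that passed in testis the groups did not overlap for 21.1%, with BMI above for 14.8% and DSE above for 6.28%, and nothing is read from this count because the breed contrast chose the genes. Outside NPTX2, whose BMI total was below 1 TPM, a mean share that differed by 30 points or more between the breeds was found for 4 members, a pair each of TEX26 and PFKFB2. Over the 98322 transcripts of genes with several transcripts and at least 1 TPM in all 6 testis libraries, 0.754% differed this much.

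**Figure D2:**
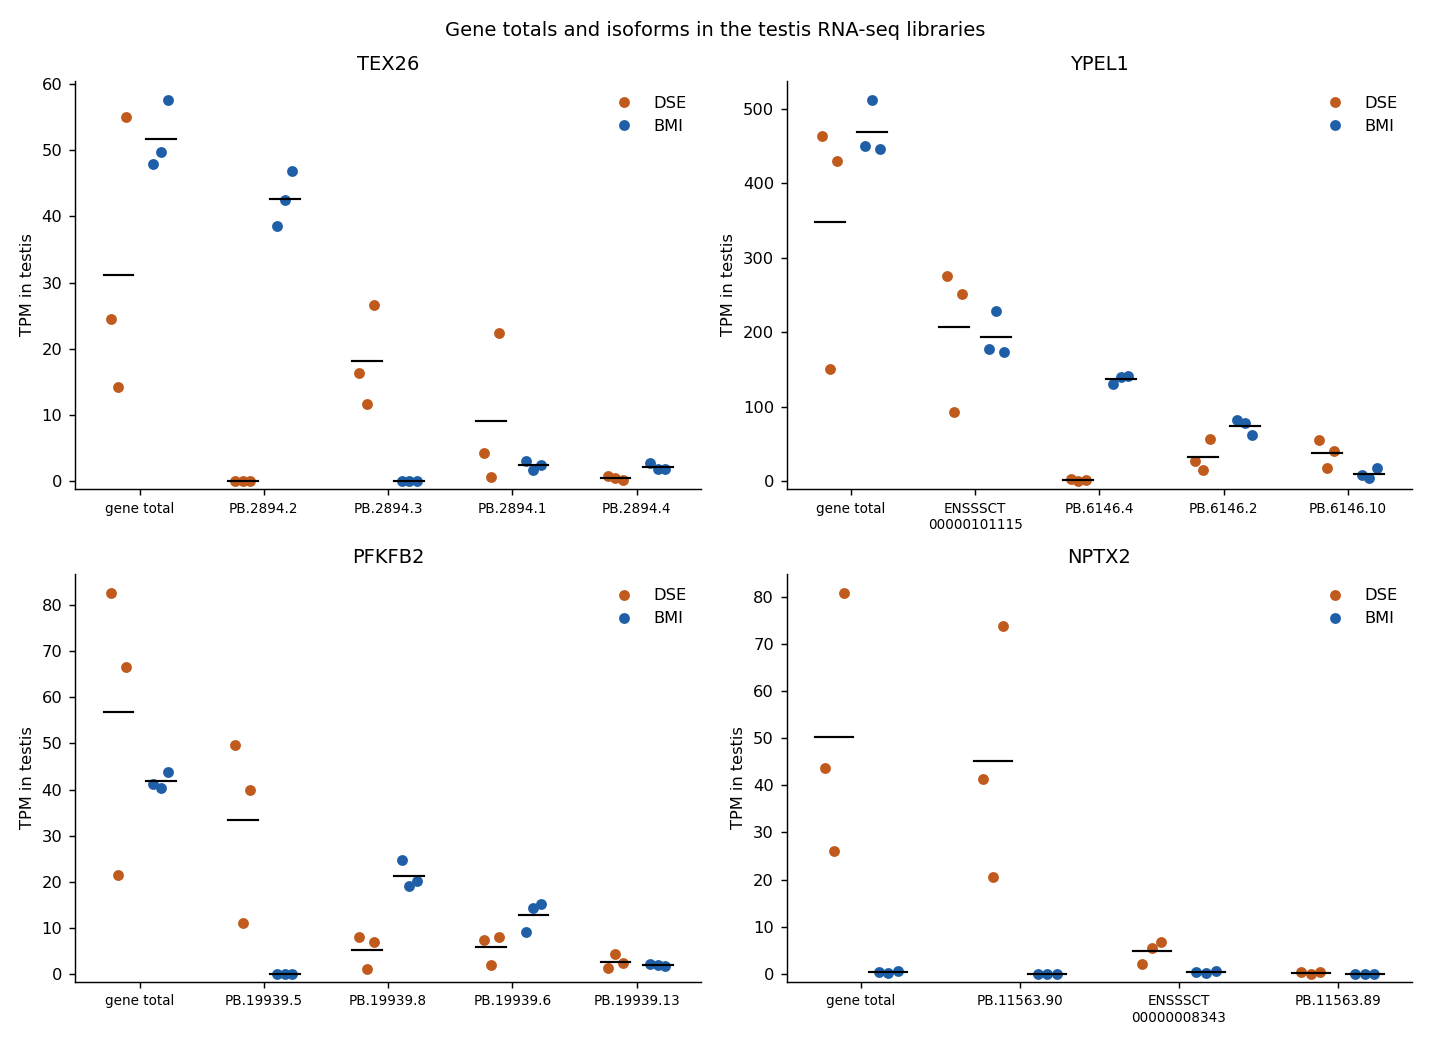
Level in TPM of the gene total and of the named isoforms in each testis library, with DSE and BMI as points (3 each) and their mean as a line. PB.2894.2 and PB.2894.3 of TEX26 are listed at 0 in all libraries of the opposite breed, PB.6146.4 of YPEL1 is high in BMI, and PB.19939.5 of PFKFB2 and PB.11563.90 of NPTX2 are listed at 0 in BMI.

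In TEX26 one isoform stood in for another. PB.2894.2 was at 38.6, 42.5 and 46.9 TPM in the 3 BMI libraries and listed at 0 in all 3 DSE libraries. PB.2894.3 was at 16.4, 11.6 and 26.7 TPM in DSE and listed at 0 in all 3 BMI libraries. In the RNA-seq table the main isoform of each breed was thus listed at 0 in the opposite breed. The 2 RNAs had the same start, the same first 6 exons and the same predicted reading frame of 295 residues. They differed in the last exon, which PB.2894.3 kept whole at 594 bases and from which PB.2894.2 lacked a 108-base intron at chr11:7593059-7593166. This intron lies in the 3′ untranslated region, since the reading frame ends at position 7593045, and the 2 isoforms also ended 3 bases apart.

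The 108-base intron was also absent from PB.2894.4, a rarer TEX26 isoform of 9 exons and a predicted reading frame of 311 residues. PB.2894.2 and PB.2894.4 together made 86.4%, 89.03% and 84.7% of TEX26 in the BMI libraries, a mean of 86.7% ± 2.19 (SD, n = 3). In the DSE libraries they made 3.35%, 3.01% and 0.232%, a mean of 2.20% ± 1.71 (SD, n = 3). The groups were far apart, and the small DSE share came from PB.2894.4 alone. In full-length Iso-seq reads, 7 of all 11 TEX26 reads from BMI testis had the last exon with the intron removed (63.6%, Wilson 95% interval 35.4% to 84.8%), and 2 had it unspliced. The other 2, of PB.2894.6, ended before that exon and could not show the intron. None of 10 reads from DSE testis had the intron removed, which allows a share of up to 30.0%. One BMI read was assigned to PB.2894.3, the isoform listed at 0 TPM in BMI. Intervals and limits of reads cover counting error only, and Iso-seq had no replicates.

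A second DSE isoform, PB.2894.1, lacked the second exon of PB.2894.3 and had a predicted reading frame of 165 residues. It reached 4.24, 0.682 and 22.4 TPM in DSE and 2.99, 1.66 and 2.44 TPM in BMI, so that DSE replicates 1 and 3 lay above the BMI libraries and DSE replicate 2 below them. In DSE replicate 3 it made 40.7% of TEX26. The gene total was 24.4, 14.2 and 55.0 TPM in DSE and 47.8, 49.7 and 57.6 TPM in BMI. The ranges overlapped, and the lowest total was that of DSE testis replicate 2, the library with low spermatid markers. Whether its germ cell content set that level was not tested. On the log2(TPM + 1) scale the BMI total was 0.91 above the DSE total, and 0.48 above it without that library. The difference in intron share was 84.5 points, and between 83.3 and 85.5 points when any 1 testis library was left out.

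**Figure D3:**
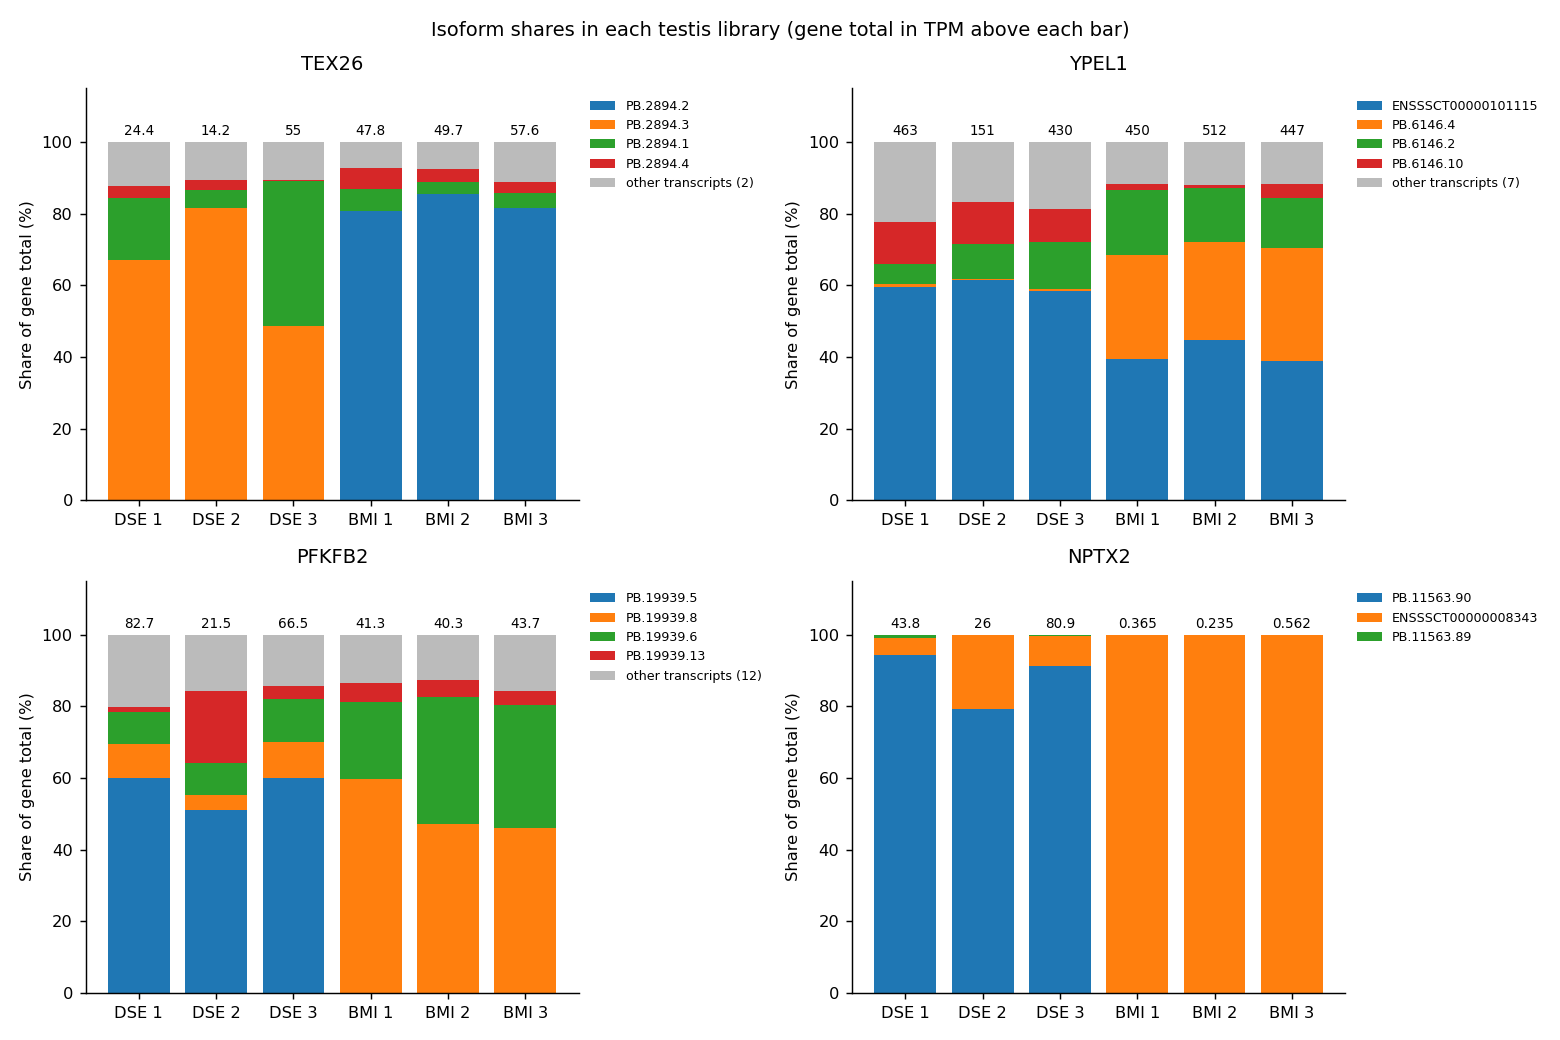
Share of each named isoform in the gene total, in percent, for each testis library, with the gene total in TPM above the bar. PB.2894.2 and PB.2894.3 exchange places between the breeds in TEX26, and the NPTX2 bars of BMI rest on totals of 0.562 TPM or less.

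In YPEL1 a cassette exon was used in BMI and nearly unused in DSE, beside a main isoform that both breeds shared. The exon of 99 bases at chr14:50196272-50196370 lies between the first exon and the exon that holds the annotated start codon at 50202252, and so in the 5′ untranslated region of the Ensembl gene model. It was part of PB.6146.4 and PB.6146.9. PB.6146.4 was at 130, 140 and 142 TPM in BMI and at 3.23, 0.608 and 1.98 TPM in DSE, a ratio of the means of 70.8. PB.6146.9 was at 12.5, 13.9 and 10.95 TPM in BMI and at most 0.487 TPM in DSE. Both isoforms lay far above DSE in every BMI library.

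Together the 2 isoforms with the cassette exon made 31.8%, 30.0% and 34.2% of YPEL1 in BMI and 0.801%, 0.402% and 0.477% in DSE. Iso-seq showed the exon in 80 of 414 YPEL1 reads from BMI testis (19.3%, Wilson 95% interval 15.8% to 23.4%) and in 6 of 764 from DSE testis (0.785%, 0.360% to 1.70%). The BMI share was thus lower in long reads than in short reads, and the order of the breeds was the same. YPEL1 had more reads than the other 3 genes, and its Iso-seq intervals are the narrowest of the members.

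The most abundant YPEL1 transcript in both breeds was ENSSSCT00000101115, which skips the cassette exon. It was at 276, 92.9 and 251 TPM in DSE and at 177, 229 and 173 TPM in BMI, and the ranges overlapped. Its mean share was 59.8% in DSE and 41.0% in BMI. Its Iso-seq counterpart PB.6146.1 took 677 of 764 reads in DSE and 296 of 414 in BMI. The gene total was 463, 151 and 430 TPM in DSE and 450, 512 and 447 TPM in BMI. The ranges overlapped, and only DSE testis replicate 2 lay apart from the rest. The log2 difference of the total, BMI minus DSE, was 0.59 with that library and 0.07 without it. Iso-seq, at nearly equal depth, had 764 YPEL1 reads in DSE testis and 414 in BMI testis, the opposite order of the RNA-seq means.

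Smaller YPEL1 differences sat at other exon edges. The share of PB.6146.10, with a later donor in its exon of 93 bases, was 9.31% to 11.8% in DSE and 0.786% to 3.97% in BMI. The share of PB.6146.5, with a later donor in an exon of 369 bases, was 6.54% to 10.2% in DSE and 1.71% to 2.82% in BMI. PB.6146.2 took 13.9% to 18.1% in BMI and 5.71% to 13.2% in DSE. These isoforms rested on few long reads. PB.6146.2 had 3 of 414 reads in BMI and 1 of 764 in DSE, PB.6146.10 had 1 and 3, and PB.6146.5 had 0 and 2. One intron of PB.6146.2 ends in GT and GG and was classed as noncanonical. The short-read shares of these isoforms therefore exceeded the long-read shares, and in the RNA-seq annotation ENSSSCT00000101115 ends 473 bases before the PB isoforms of YPEL1. The part of that end in the shares was not tested.

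The deposited prediction gave all 11 YPEL1 isoforms the same reading frame of 146 residues, placed inside the last exon. The Ensembl model places the coding sequence of ENSSSCT00000101115 elsewhere, from 50202252 to 50206002 in 4 exons. The cassette exon lies before both. The gene PPIL2, on the opposite strand, overlaps YPEL1 from 50201475 on and so does not reach the cassette exon, and ENSSSCG00000035992 spans TEX26 on the opposite strand. Whether the counting used strand is not given in the sources used here.

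**Figure D4:**
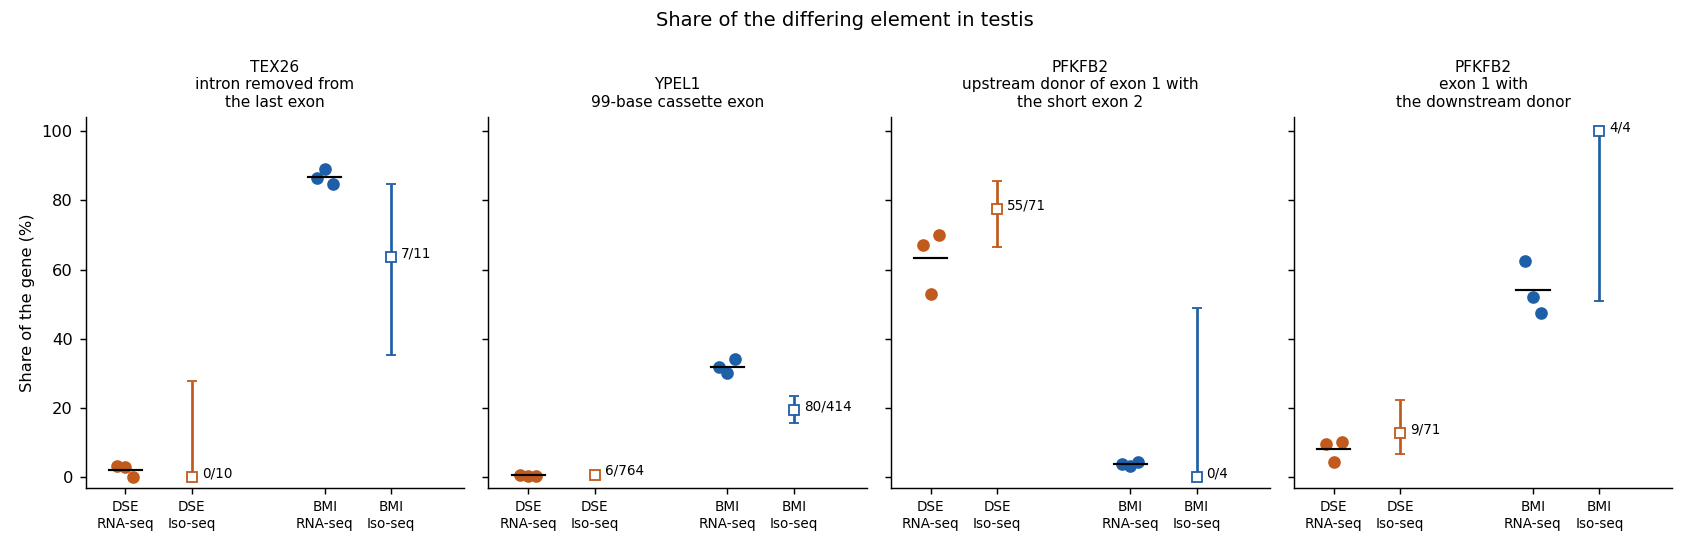
Share in percent of the gene of the element that differed, in testis, with RNA-seq libraries as filled points (3 per breed, mean as a line) and Iso-seq as open squares with Wilson 95% intervals and the reads beside them. In all 4 panels the RNA-seq points of the breeds are apart, and only YPEL1 and DSE PFKFB2 rest on more than 11 long reads.

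In PFKFB2 the breeds differed at the 5′ end. PB.19939.5 was at 49.6, 10.97 and 39.8 TPM in DSE and listed at 0 in all 3 BMI libraries. PB.19939.8 was at 24.6, 19.0 and 20.1 TPM in BMI and at 7.97, 0.930 and 6.84 TPM in DSE, and PB.19939.6 was at 8.97, 14.3 and 15.1 TPM in BMI and at 7.25, 1.94 and 7.98 TPM in DSE. All BMI values of the latter pair lay above all DSE values. The ratio of the means, BMI over DSE, was 4.05 for PB.19939.8 and 2.23 for PB.19939.6, so both were also present in DSE, while PB.19939.5 was listed at 0 in BMI.

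The 3 RNAs of PFKFB2 shared 16 exons in number, the last 14 exons and a predicted reading frame of 517 residues that begins in exon 3 at 67683140. Their differences lay in the 2 exons before it. PB.19939.5 joined the upstream donor of exon 1 at 67680806 to a short exon 2 that ended at 67681917. PB.19939.8 used a donor at 67680915, and its first exon began 49 bases later. PB.19939.6 kept the upstream donor and lengthened exon 2 by 112 bases to 67682029.

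Taking all isoforms with the upstream donor and the short exon 2 together, their share of PFKFB2 was 67.1%, 53.1% and 70.1% in DSE and 3.99%, 3.38% and 4.42% in BMI. The downstream donor took 9.63%, 4.32% and 10.3% in DSE and 62.6%, 52.1% and 47.5% in BMI. The long exon 2 took 8.76% to 12.0% in DSE and 21.7% to 35.4% in BMI. None of these ranges overlapped. In Iso-seq, 55 of 71 PFKFB2 reads from DSE testis joined the upstream donor to the short exon 2 (77.5%, Wilson 95% interval 66.5% to 85.6%). None of the 4 reads from BMI testis did, which allows a share of up to 75.0%, and all 4 used the downstream donor. In DSE the downstream donor had 9 of 71 reads (12.7%, 6.81% to 22.4%). The BMI reads are too few to set the share in that breed.

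The 3′ end of PFKFB2 did not separate the breeds. Isoforms ending in the near last exon at 67701199 made 77.6% ± 10.9 of the gene total in DSE and 83.0% ± 1.21 in BMI (SD, n = 3 each). No polyadenylation motif was found for these isoforms in the deposited table, whereas AATAAA was found for those ending at 67709517. In DSE Iso-seq the near end held 32 of 71 reads, and PB.19939.3, with the far end, held 24 reads although it was listed at 0, 0 and 4.40 TPM in the 3 DSE libraries. The isoform with the most long reads was therefore not the one with the highest TPM.

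The PFKFB2 total was 82.7, 21.5 and 66.5 TPM in DSE and 41.3, 40.3 and 43.7 TPM in BMI. The DSE libraries lay on both sides of BMI. In Iso-seq, which had no replicates, PFKFB2 took 71 of 457778 reads in DSE testis and 4 of 455023 in BMI testis. The log2 difference, BMI minus DSE, was -0.24, changed to 0.13 without DSE testis replicate 1 and to -0.82 without DSE testis replicate 2. YOD1, a deubiquitinating enzyme gene at a mean of 72.8 TPM in testis, lies on the opposite strand. It spans 67672646 to 67681826, so its 5′ end overlaps exon 1 and the first bases of exon 2 of PFKFB2.

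NPTX2 did not exchange isoforms. It was present in DSE testis and nearly absent from BMI testis. Its total was 43.8, 26.0 and 80.9 TPM in DSE and 0.365, 0.235 and 0.562 TPM in BMI, with a wide gap between the groups. Most of the DSE level was PB.11563.90, at 41.3, 20.6 and 73.8 TPM, which was listed at 0 in all 3 BMI libraries and in all 24 libraries of the other glands. Its share in DSE was 94.5%, 79.2% and 91.2%.

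PB.11563.90 starts inside NPTX2 with a first exon of its own at chr3:5729155-5729239, and joins it to the last 2 exons of the gene. The predicted reading frame has 110 residues, against 431 for the 5-exon ENSSSCT00000008343. The annotated transcript was also higher in DSE, at 2.06, 5.41 and 6.78 TPM against 0.365, 0.235 and 0.562 TPM in BMI, a ratio of the means of 12.3. Iso-seq gave 6 NPTX2 reads in DSE testis, 2 for each of the 3 isoforms, and none in BMI testis, which had a similar total depth. PB.11563.89 begins 34 bases before PB.11563.90 and splices from an earlier donor. It had as many long reads but at most 0.368 TPM.

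Among the DSE libraries NPTX2 had the order of the spermatocyte sums, at 201, 99.2 and 265 TPM in replicates 1 to 3, and of the spermatogonia sums, at 221, 104.1 and 249 TPM. The spermatogonia sum is mostly DDX4, a germ cell helicase gene, at a mean of 147 TPM in DSE and 225 TPM in BMI. KIT of that list was also higher in BMI, at 2.63 TPM in DSE and 4.18 TPM in BMI, while UCHL1, ZBTB16 and GFRA1 had the higher mean in DSE. The spermatid sum was highest in replicate 1. The BMI libraries, with little NPTX2, had spermatocyte sums of 276 to 326 TPM and spermatogonia sums of 230 to 269 TPM. The Leydig, Sertoli and peritubular sums were, like NPTX2, higher in all 3 DSE libraries than in BMI. Within DSE they were highest in replicate 2, where NPTX2 was lowest. Orders of only 3 libraries can match by chance, and which cells held NPTX2 was not tested.

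The other glands were used to ask whether the same isoforms differ between the breeds outside testis. TEX26 was at 0.323 TPM or less in each of the 24 libraries, and no TEX26 transcript passed the filter there. NPTX2 was at 1.65 TPM or less, most of it ENSSSCT00000008343, and PB.11563.89 at 0.243 TPM or less. Neither gene gave enough to compare isoforms. No NPTX2 or TEX26 Iso-seq read came from these glands apart from 2 of NPTX2, both of the annotated isoform.

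**Figure D5:**
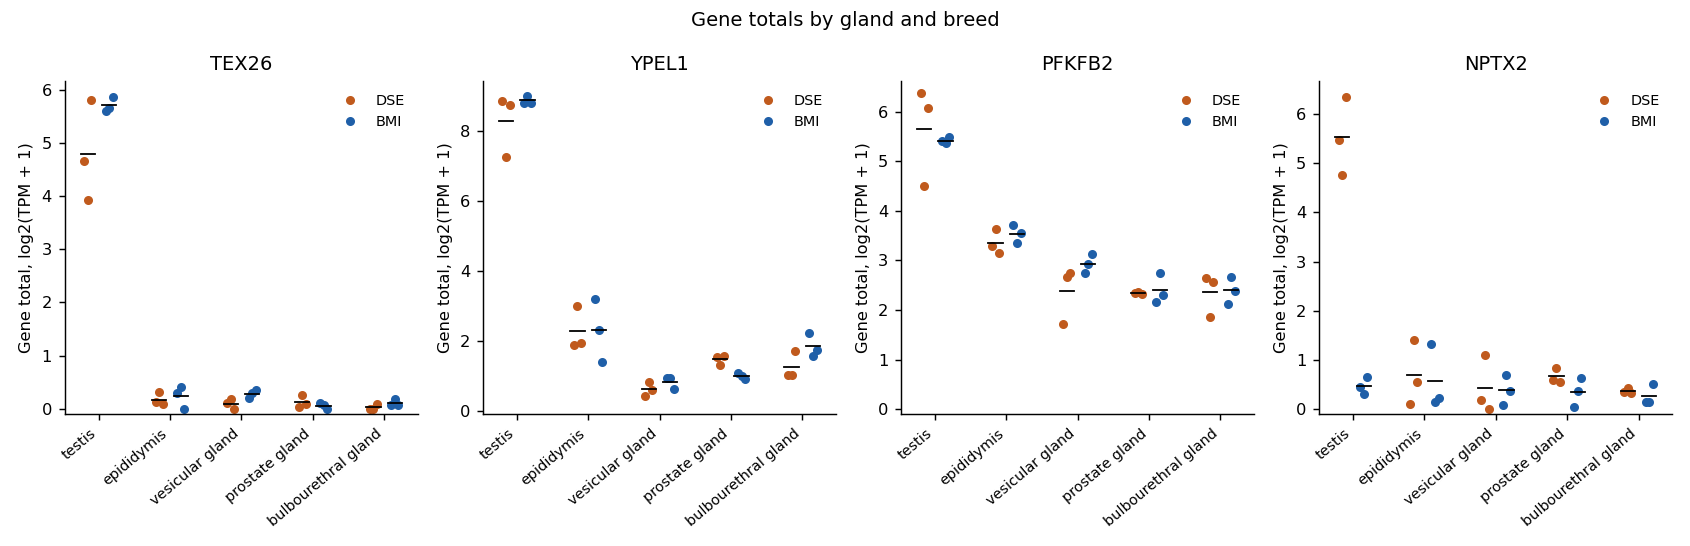
Gene total as log2(TPM + 1) in each gland, with DSE and BMI libraries as points (3 each) and their mean as a line. TEX26 and YPEL1 are high in the testis of both breeds, PFKFB2 is also measurable elsewhere, and NPTX2 is high in DSE testis only.

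PFKFB2 was expressed in every gland, at a mean of 10.03 ± 1.65 TPM in epididymis, 5.56 ± 1.82 in vesicular gland, 4.31 ± 1.11 in bulbourethral gland and 4.22 ± 0.788 in prostate gland (SD, n = 6). The testis, at 21.5 to 82.7 TPM, and the epididymis, at 7.87 to 12.2 TPM, did not overlap with the remaining glands or with each other. The ranges of the 3 accessory glands overlapped. Over these 24 libraries the total did not pass the test between breeds, with a log2 difference of 0.21 ± 0.14 (SE, BMI minus DSE, limma adjusted p = 0.709).

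A different PFKFB2 isoform led outside testis. PB.19939.13 has no exon 1 and starts at 67681952, inside the long exon 2, whose donor at 67682029 it uses. Its mean share in DSE and BMI was 38.4% and 38.0% in epididymis, 39.2% and 49.4% in vesicular gland, 47.6% and 50.1% in prostate gland, and for the bulbourethral gland 23.3% and 33.9%. Its level did not pass the test between breeds (log2 difference 0.32 ± 0.21, limma adjusted p = 0.682). The deposited table marks it as having a noncanonical junction and a junction of the kind made by template switching in reverse transcription.

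The near last exon, which led in testis by TPM though not in long reads, was rare elsewhere, with mean TPM shares of 0.488% to 9.93%. The upstream donor with the short exon 2 made mean shares of 11.4% in DSE and 6.04% in BMI epididymis, 8.03% and 2.80% in vesicular gland, 16.8% and 28.3% in prostate gland, and for the bulbourethral gland 12.1% and 2.12%, all on mean levels of 1.205 TPM or less and at most 2.71 TPM in a library. The DSE mean was higher in all glands but the prostate gland, and these differences were not tested. Of 8 PFKFB2 isoforms tested for share over the 24 libraries, none passed. Among them, PB.19939.3, with the upstream donor and the short exon 2, differed by 0.61 ± 4.24 points (SE, BMI minus DSE). PB.19939.7, with the downstream donor, differed by -2.70 ± 3.88 points, and PB.19939.9, with the long exon 2, by 0.85 ± 6.80 points. The largest difference of a share with p below 0.05 was that of ENSSSCT00000046168, an annotated isoform with the far last exon, at -10.7 ± 3.35 points (SE, BMI minus DSE, limma adjusted p = 0.138). It passed only after the arcsine transformation, with an adjusted p of 0.0412. Over all 28091 shares tested, 1.21% were called. Gland by gland no member share was called either, among 14 tested for epididymis, 13 for bulbourethral gland, 7 for vesicular gland and 8 for prostate gland, where 0.00823%, 0.0357%, 0.0286% and 0.0504% of all shares were called.

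YPEL1 outside testis was highest in epididymis, at 4.38 ± 2.64 TPM (SD, n = 6), and between 0.340 and 3.70 TPM in the accessory glands. The cassette exon, so common in BMI testis, was listed at 0 in all 3 DSE epididymis libraries, and made 2.81%, 19.0% and 0% of YPEL1 in those of BMI. The BMI library with 19.0% was replicate 2, which also had the highest spermatid sum outside testis, 1066 TPM against 11.9 to 266 TPM in the other 5 epididymis libraries. The part of germ cell RNA in it was not tested. The exon was also listed in BMI vesicular gland replicate 3, at 11.2% of a YPEL1 total of 0.544 TPM, where the spermatid sum was 6.54 TPM, and at 0 in all other libraries of the accessory glands. In epididymis the share of the cassette isoform PB.6146.4 was 7.29 points higher in BMI than in DSE (SE 5.80, limma adjusted p = 0.926). The share of PB.6146.5 was 32.0 points lower in BMI (SE 12.6, limma adjusted p = 0.926). Neither passed the test.

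In all, 9 of the 36 transcripts passed the filter over the 4 other glands and none was called between the breeds, where 0.692% of 50000 transcripts were called. None of 3 gene totals was called, where 0.406% of 16759 were. Gland by gland, 3 members were tested in epididymis and 3 in bulbourethral gland, 1 in vesicular gland and 1 in prostate gland, and none was called under any of the settings tried. Of all transcripts, 0% were called in epididymis, 0.103% in bulbourethral gland, 0.191% in vesicular gland and 0.42% in prostate gland. In epididymis, where limma called 0 of 34693, 1057 had an unadjusted p below 0.05. In vesicular and prostate gland the median transcript differed by 0.359 and -0.366 (log2, BMI minus DSE), and by less than 0.1 after scaling by size factors. A difference missed in a gland with so little of the gene is not shown to be absent.

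Set against the other 4 glands over both breeds, testis had the higher gene totals, by 7.14 for YPEL1, 5.12 for TEX26, 2.82 for PFKFB2 and 2.54 for NPTX2 (log2 of TPM + 1). These differences are a description with no test, since the genes were chosen on their testis values and most of their transcripts passed the filter only through testis. The NPTX2 value is a mean of a high and a near-absent breed. The DSE testis libraries lay at 26.0 TPM and above, and those of BMI within the range of the other glands. Among single transcripts, ENSSSCT00000101115 of YPEL1 differed by 6.67 and PB.19939.8 of PFKFB2 by 3.41 on the same scale, whereas PB.19939.13 of PFKFB2 differed by -0.01.

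Genes related to the members were called between the breeds in testis about as rarely as all genes, so nothing is read from these counts. Of the 27 other genes named TEX with a number, most of them germ cell genes, 27 gene totals were tested and none was called, where 0.619% of all gene totals were. Their median log2 difference was 0.73, BMI minus DSE, against 0.10 for all genes. Without DSE testis replicate 2 it was 0.20, against 0.08 for all genes, so leaving out the library with low spermatid markers moved the median of this list. Of 86 TEX transcripts 1 was called, PB.19951.1 of TEX47, at 66.7 ± 5.83 TPM in BMI and 11.8 ± 3.53 TPM in DSE (SD, n = 3), a log2 difference of 2.44 ± 0.31 (SE, limma adjusted p = 0.0211). Over all transcripts 0.698% were called. The most abundant TEX gene was TEX35, at 563 ± 359 TPM in DSE and 707 ± 25.7 TPM in BMI.

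Among the enzymes that make, break or respond to fructose 2,6-bisphosphate, 8 of 9 gene totals were tested and none was called, while 3 had an unadjusted p below 0.05, against 2225 of all 16319 gene totals. FBP1, a fructose-1,6-bisphosphatase gene, had the largest difference, at 19.9 ± 19.0 TPM in DSE and 1.86 ± 0.381 TPM in BMI (SD, n = 3, log2 difference -2.36 ± 0.70, SE, limma adjusted p = 0.228). Its DSE libraries, at 3.58 TPM and above, lay above those of BMI, at 2.11 TPM and below. Among single transcripts tested in testis, the groups did not overlap for 21.1%. The list's median log2 difference was -0.45, and -0.17 without DSE testis replicate 2. PFKM, the muscle-type phosphofructokinase and the most abundant in BMI, was at 56.3 ± 21.9 TPM in DSE and 92.8 ± 8.07 TPM in BMI (log2 difference 0.79 ± 0.34, limma adjusted p = 0.359). PFKFB4, an enzyme of the same kind as PFKFB2 that is known from testis, was at 22.0 ± 10.5 TPM in DSE and 12.8 ± 0.497 TPM in BMI (adjusted p = 0.423 by limma).

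Among the pentraxins and AMPA receptor subunits, 5 of 10 gene totals were tested and none was called. The median was -0.57, and 0.06 without DSE testis replicate 2. NPTX1, a neuronal pentraxin like NPTX2, was the most abundant, at 38.9 ± 22.3 TPM in DSE and 12.6 ± 8.15 TPM in BMI (log2 difference -1.63 ± 0.57, limma adjusted p = 0.290). Among the other yippee-like genes 3 of 4 were tested and none was called, with a median of -0.17, and -0.04 without DSE testis replicate 2. YPEL5 was the most abundant, at 67.5 ± 5.92 TPM in DSE and 60.2 ± 9.37 TPM in BMI.

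The genes next to the members were also compared between the breeds. Of the nearest gene with a symbol and a tested transcript on each side, 8 in all, none was called in its total or in any of its tested transcripts, which at 0.619% of all totals and 0.698% of all transcripts says nothing particular about them. MEDAG, 215 bases from TEX26, was at 8.497 ± 6.16 TPM in DSE and 9.30 ± 1.99 TPM in BMI. BAIAP2L1 and TRRAP, on either side of NPTX2, were at 4.76 and 37.3 TPM in DSE and 8.08 and 36.3 TPM in BMI. Their log2 differences, BMI minus DSE, were 0.76 ± 0.37 and -0.03 ± 0.22 (SE, limma adjusted p = 0.399 and 0.947).

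The genes most like each member over the 10 means of breed and gland were found by Pearson correlation among 19796 genes, as a description in which the points share libraries and are led by testis. For NPTX2 they were PAK5, a p21-activated kinase gene (r = 0.996), and MARCO, a macrophage scavenger receptor gene (r = 0.976). PAK5 was at a mean of 6.09 TPM in DSE testis and 0.0807 TPM in BMI testis, and MARCO at 5.27 and 0.505 TPM. For TEX26 they were ADAM21 and LRRD1 (both r = 0.9996), for YPEL1 GPR161 and MEA1 (both r = 0.998), and for PFKFB2 WNK3 (r = 0.993) and MYO7A (r = 0.991).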

How the data were processed

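The authors prepared RNA-seq and Iso-seq libraries from 5 glands of both breeds. They deposited RNA-seq levels as TPM per transcript, estimated with Salmon 1.9.0 on the annotation merged with Iso-seq isoforms. They deposited Iso-seq full-length reads as counts per isoform without normalization, beside SQANTI3 columns such as the percent of A bases downstream of each 3′ end, which was not analysed further. Salmon divides reads among isoforms that share most of their sequence. The labels name rRNA depletion and the paper poly-T bead purification. Strandedness is not given in the sources used here. The paper gives total RNA-seq reads per library, but the TPM table holds no counts per transcript. The Iso-seq reads assigned to deposited isoforms summed to 231413 to 458697 per library, less than the full-length reads sequenced, and these sums served as depth. The small RNA table was not used.

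Gene totals were sums of TPM, and shares were TPM over the gene total. Each group was 1 breed in 1 gland and held 3 libraries. The paper describes them as separate tissue samples. Whether each came from another boar is not given in the sources used here, so p-values measure the spread between these samples. Transcripts or totals with at least 1 TPM in at least 3 of the libraries fitted were tested as log2(TPM + 1) with limma 3.58.1 (R 4.3.3, trended moderation), which understates changes of low genes. Calls required a Benjamini-Hochberg adjusted p below 0.05 over all features and a log2 difference of 1. Shares, of genes with at least 1 TPM in all libraries fitted and a mean share of 5% in a breed, were tested without trend, with a difference of 10 points. Iso-seq shares have Wilson intervals, and 0 reads a limit of 3 reads. Scripts were checked on simulated data. Figures and tables used Python 3.11.15.

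Named isoforms are the highest of each gene in testis of each breed and up to 2 in each direction by difference in share, with the Iso-seq isoform of most reads. PB.6146.5, PB.6146.9, PB.19939.7, PB.19939.9, ENSSSCT00000046168, FBP1 and PFKFB4 were named outside this rule, with their values known. Members and lists were chosen with earlier results of these data known. Alternatives were a pseudocount of 0.1, no filter, size factors, no trend, array weights, one fit of all glands and a replicate block. Further ones were an arcsine square root transformation of the shares, other limits for shares, Iso-seq without incomplete splice matches, and leaving out each library. Sequences came from the NCBI copy of Sscrofa11.1, whose chromosome lengths match the annotation.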

Additional observations from a re-analysis of the deposited data

How the results depend on the processing

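Replicate numbers did not pair the breeds: the correlation of deviations between them was -0.365 to 0.214 over 15 pairs, 3 of them above 0.1. Between glands 8 of 30 correlations in BMI and 10 of 30 in DSE were above 0.1, and in DSE all 3 were for epididymis with vesicular gland (0.209 to 0.441) and for testis with vesicular gland (0.105 to 0.296). With the replicate block, calls between breeds went from 272 to 40 for testis transcripts, from 101 to 256 for testis totals, from 32 to 1 for bulbourethral gland, from 47 to 0 for vesicular gland and from 120 to 0 for prostate gland, and over the 4 glands to 361 transcripts, 78 totals and 323 shares, within 1.5 times. No member call outside testis changed with it. Array weights gave 2589 testis transcripts, 790 testis totals, 31 in epididymis (from 0), 69 in bulbourethral gland, 574 in vesicular gland, 3606 in prostate gland and 110 totals over the 4 glands (from 68). One fit of all glands gave 3213 in testis, 461 for epididymis, 281 for bulbourethral gland, 215 in vesicular gland and 293 in prostate gland. A pseudocount of 0.1 gave 135 in testis, 27 in vesicular gland, 35 in prostate gland, 682 transcripts over the 4 glands (from 346) and 184 totals over them. No filter gave 82 transcripts and 32 totals in testis, 0 in bulbourethral gland, 8 in vesicular gland and 29 in prostate gland. No trend gave 1 in epididymis and 60 in bulbourethral gland. A gene total of 5 TPM gave 154 shares (from 341), on 14150 shares tested in place of 28091. Size factors changed no count by over 1.5 times. The causes were otherwise not tested.

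Leaving out 1 library gave 2 to 250 testis transcripts and 3 to 256 testis totals, in both highest without DSE testis replicate 2, 0 to 1 in epididymis, 0 to 1 in bulbourethral gland, 0 to 14 in vesicular gland and 0 to 393 in prostate gland. It gave 312 to 389 transcripts, 64 to 77 totals and 293 to 364 shares over the 4 glands, and 23388 to 25308 transcripts and 9108 to 9688 totals for testis against the rest. No member was called between breeds outside testis under any of these, apart from the PFKFB2 share named above. A transcript seen in 1 breed fails the filter once a library of that breed is left out. The log2 difference of the totals in testis without 1 library was -5.45 to -4.65 for NPTX2, -0.82 to 0.13 for PFKFB2, 0.48 to 1.42 for TEX26 and 0.07 to 0.87 for YPEL1. For NPTX2 it was -6.59 with a pseudocount of 0.1 and -5.07 with 1. Iso-seq without incomplete splice matches gave the same shares in testis. No joined gene label held a member, so that alternative gave no value. Iso-seq gave 11 reads or fewer for TEX26, NPTX2 and BMI PFKFB2, so their shares have wide intervals.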
